A study of Gallus gallus with 5 samples.

Results

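Chicken DT40 cells lacking both H2A.Z genes (DKO, double knockout) were compared with wild-type DT40 cells (WT) on 1 one-colour oligonucleotide array each, 2 of the 5 arrays in the series. Members were chosen by title, DT40_WT_cl18 against DT40_H2A.Z_DKO, and both arrays lay on 1 slide. DT40 is a chicken B cell line from a lymphoma of the bursa, and its WT culture is named as clone cl18. The knockout line carries an H2A.Z.1 transgene that tetracycline represses, and both cultures received tetracycline (2 µg/ml, 72 hours). The other arrays hold the DKO with stable H2A.Z.1 (DKO+H2A.Z.1, same slide) or with a mutant form, 5KR-H2A.Z in one line and H2A-H2A.Z in the other (another slide). The DKO array carries labels that disagree. Title and source name give DKO, whereas description and genotype give the knockout with stable H2A.Z.1, and the title is followed here. With 1 array a line there was no replicate and no test, and every difference below describes these 2 arrays, so genotype and the particular culture or clone cannot be told apart.

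H2A.Z is a variant of histone H2A that chromatin remodelling complexes of the SRCAP and p400 type place in nucleosomes beside gene starts and at enhancers. Vertebrates make it in the forms H2A.Z.1 and H2A.Z.2, from separate genes. It is found at active genes and at silent genes that can be switched on, and its N-terminal tail carries lysines that are acetylated at active genes.

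Of 43603 probes that are not controls, 30964 exceeded background clearly in WT, DKO or both and gave a difference, and 4413 of 5382 genes that could be named did so on their brightest probe. On the WT array 30574 of 43803 spots were well above background and on the DKO array 29137. The DKO array was dimmer, with a 75th percentile of the processed signal of 1115 against 1455 in WT, although the mean log2 signal of 8 spike-in probes was 12.3 on DKO and 12.2 on WT. Repeated spots of 1 probe had a median SD of 0.0569 on DKO and 0.0601 on WT on the log2 scale. Levels are given as log2 signal minus the 75th percentile of the array, and differences as DKO minus WT of these levels. A level of 1 probe is not comparable with that of another.

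The gene for H2A.Z.1, H2AFZ (NM_001031374), was the bright gene with the lowest DKO level relative to WT. Probe A_87_P037084 read 5.87 in WT and 1.11 in DKO. Probe A_87_P194348 read 6.17 in WT and -0.37 in DKO. Both probes therefore put H2AFZ far lower in DKO, by 4.75 and 6.54 on the log2 scale, yet both stayed well above background there. In DKO+H2A.Z.1 the probes stood at 0.81 and -0.31, lower than DKO on the first and slightly higher on the second. Since the position of the probes within the transcript is not known here, they do not settle the conflicting label.

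Several other histone genes were near their WT level, though not all. The replication-type histones HIST1H2A4, HIST1H2B8 and HIST2H4B differed by -0.15, -0.02 and -0.04, and H3F3B, a gene for the replacement histone H3.3, by 0.30. Linker histones HIST1H101 and HIST1H110 differed by 0.02 and -0.13. The linker histone H1F0 was dim, at -6.97 in WT and -6.10 in DKO. It differed by 0.87 on the 1 of 3 probes that was well above background. The macroH2A genes were lower: H2AFY, which encodes macroH2A1, read 1.99 in WT and 1.18 in DKO, with -0.81 to -0.84 on its 3 probes. H2AFY2, for macroH2A2, read -1.11 and -2.21, and 2 of its 3 probes were at least 2-fold lower (-0.98 to -2.13). CENPA, the centromeric H3 variant, read -2.30 and -1.56. Thus of the 9 measured members of the list of histone variants and linker histones, H2AFZ and H2AFY2 were past 2-fold. Both were lower, 22.2% of the list beside 11.2% of all genes. H2AFZ is a gene that the knockout removes, so this share is not read as a result about the list. Of the other members H2AFY2 alone was past 2-fold.

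At least 2-fold higher in DKO were 189 genes (4.28% of those read) and at least 2-fold lower 495 (11.2%). Over all probes, named or not, 1432 were higher (4.62%) and 3896 lower (12.6%). Most genes differed little: 3019 of 4413, or 68.4%, lay within 1.5-fold, and the quartiles were -0.30 and 0.43. At 4-fold the counts were 57 higher and 172 lower, and at 8-fold 22 and 49. Lower genes made up 72.4% of those apart, and this split depended on the scaling: it was 91.3% after scaling to the spike-in probes, 58.1% with median centring and 82.9% in the authors' deposited value table with no percentile subtracted. The median over all genes was 0.15 here, -0.35, 0.33 and -0.04 in those settings.

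The share of genes apart was smaller among bright genes. When genes were divided into 10 bins by mean signal, 29.2% of the dimmest 442 were at least 2-fold lower and 10.9% higher. Of the brightest 442 none was lower and 1 was higher, and the median difference there was 0.33 against -0.15 among the dimmest. Spike-in scaling lowers every difference by 0.50, and higher genes that were less than that past 2-fold do not reach 2-fold with it. A gene dim in both cultures has a less certain fold: of the 495 lower genes, 122 were not well above background in DKO, and for 58 of these a bound of at least 2-fold could be given. Of the 189 higher genes, 42 were not well above background in WT and 30 had such a bound.

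**Figure D1:**
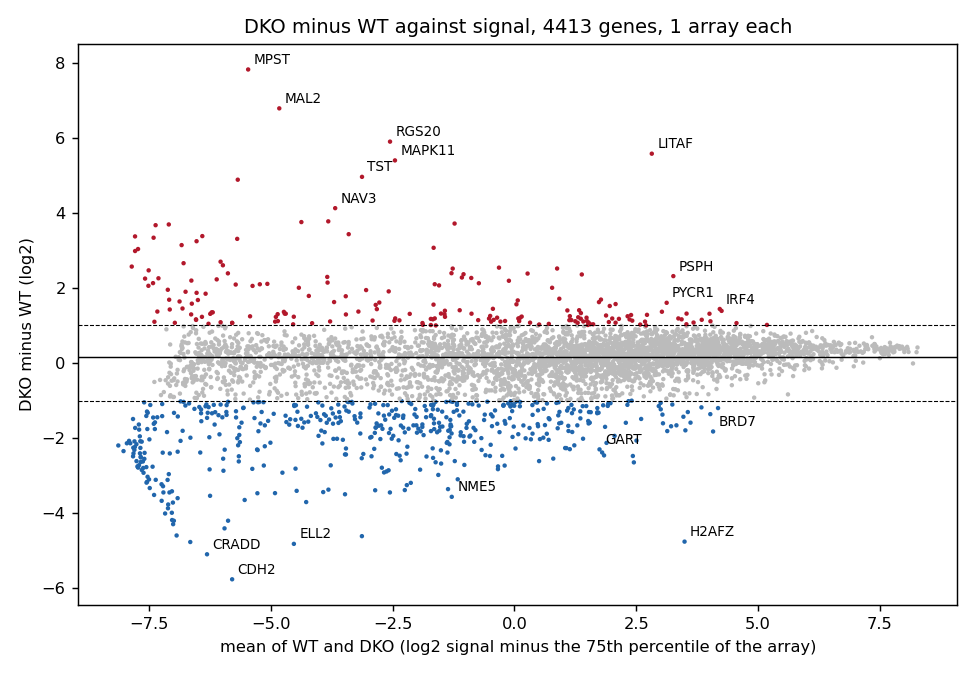
Difference DKO minus WT (log2) of 4413 genes against the mean level of the 2 arrays (log2 signal minus the 75th percentile), 1 point a gene on its brightest probe. Blue and red points are the 495 genes at least 2-fold lower and the 189 at least 2-fold higher, dashed lines mark 2-fold, and the solid line is the median of all genes (0.15, which was -0.35 after spike-in scaling). H2AFZ stands apart among bright genes. LITAF, also labelled, stands far higher in DKO but is not one of the brightest 1104 genes.

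**Figure D2:**
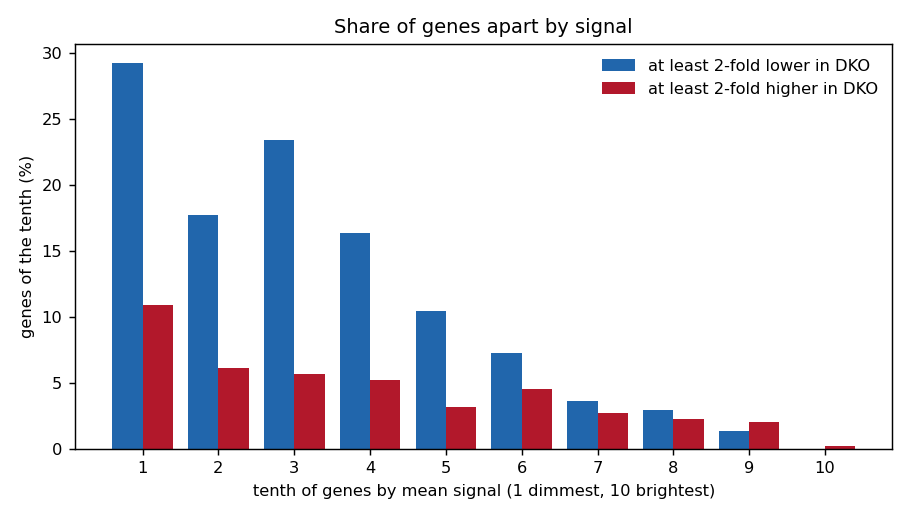
Percentage of genes at least 2-fold lower (blue) or higher (red) in DKO, in 10 bins of genes by mean signal of the 2 arrays. The lower share was 29.2% in the dimmest bin and 0 in the brightest.

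Probes of 1 gene gave a check within the arrays. Among lower genes with more than 1 probe, 205 of 321 were at least 2-fold lower on every probe, and 2 had a probe at least 2-fold higher. Among higher genes with more than 1 probe the counts were 71 of 134 and 2. One of the genes whose probes disagreed was UNC5C, a netrin receptor. Its brighter probe gave 2.23 and was not well above background in WT. The other gave -1.64 and was not well above background in DKO.

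Genes with 3 or more probes, all in the same direction, were named next, the lower ones first. GART, an enzyme of purine synthesis, read 2.89 in WT and 0.60 in DKO, and its 6 probes lay between -2.05 and -2.33. GATD3A read 3.07 and 0.61, with 5 probes between -2.24 and -2.56. Both genes were bright in WT and about 5-fold lower in DKO (4.92-fold and 5.50-fold). In DKO+H2A.Z.1 they read 2.38 and 2.62.

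PACSIN3, a protein of membrane bending and endocytosis, read 2.17 in WT and -0.09 in DKO (4.80-fold lower). CDK2AP1, an inhibitor of the kinase CDK2, read 0.73 and -1.74 (5.56-fold lower). IFT27, a GTPase of the train that moves cargo in cilia, read -0.18 and -2.57, and its 4 probes lay between -2.27 and -2.38. IDUA, the lysosomal enzyme that removes iduronic acid, read -1.89 and -4.31 (5.35-fold lower). For these 4 genes DKO+H2A.Z.1 stood at 1.45, 0.16, -0.48 and -2.34, nearer to WT than to DKO.

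COL22A1, a collagen of tissue junctions, read -1.18 in WT, -4.07 in DKO and -2.65 in DKO+H2A.Z.1. APP, the amyloid precursor protein, read -4.58, -6.77 and -6.82 in the same order, so DKO and DKO+H2A.Z.1 stood together. A further 5 genes of this group had no probe well above background in DKO. MBL2, a secreted lectin of innate immunity, was at least 10.4-fold lower, WWC1 (KIBRA, of the Hippo pathway) at least 3.96-fold, TSHB, the beta chain of thyrotropin, at least 3.51-fold, the proteoglycan SDC2 at least 3.41-fold, and the peptide hormone GUCA2B at least 2.96-fold. SERPINB6 and TMC7 completed the 15, with -2.84 and -2.98 on their brightest probes. TSHB, GUCA2B, SDC2, WWC1 and APP did not stay past 2-fold in every alternative (-0.23, -0.21, -0.40, -0.56 and -0.50 at the weakest). The rest of the 15 did.

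**Figure D3:**
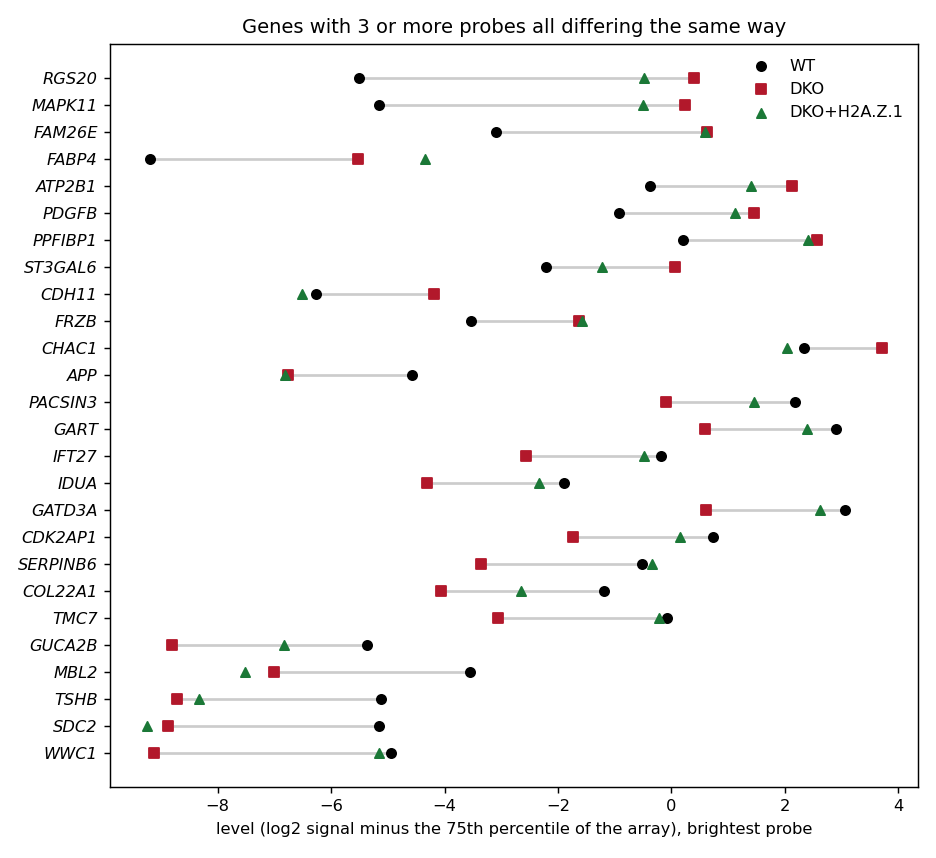
Levels (log2 signal minus the 75th percentile, brightest probe) of 26 genes named for at least 3 probes that all differed the same way, 11 higher and 15 lower in DKO. Circles are WT, squares DKO and triangles DKO+H2A.Z.1, 1 array each. RGS20 and MAPK11 stand at -5.50 and -5.15 in WT and at 0.39 and 0.24 in DKO, and WWC1, SDC2, GUCA2B and TSHB lie below -8 in DKO, where no probe was well above background.

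Higher genes of the same kind were led by RGS20, which speeds the shutdown of G protein signals. It read -5.50 in WT and 0.39 in DKO, 59.5-fold higher, with 5.85 to 6.05 on 3 probes. MAPK11, the beta form of p38 kinase, read -5.15 and 0.24, 42.1-fold higher. In DKO+H2A.Z.1 they stood at -0.48 and -0.51, far above WT, so both lines made from the knockout were high for these genes.

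PDGFB, a growth factor chain, read -0.92 in WT, 1.46 in DKO and 1.12 in DKO+H2A.Z.1. PPFIBP1, a liprin of cell adhesion sites, read 0.20, 2.56 and 2.41, and all 6 of its probes were past 2-fold. ATP2B1, a calcium pump of the plasma membrane, read -0.38, 2.13 and 1.41, with 5 probes between 2.34 and 2.52. FRZB, a secreted WNT antagonist, read -3.54, -1.63 and -1.57. The 4 genes share a high level in both DKO and DKO+H2A.Z.1.

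FAM26E, of a family of channel proteins, read -3.09 in WT, 0.63 in DKO and 0.59 in DKO+H2A.Z.1. FABP4, a fatty acid carrier, was not well above background in WT and at least 3.18-fold higher in DKO (0.85 at the weakest alternative). ST3GAL6, a sialyltransferase, read -2.22, 0.06 and -1.23, with 2.19 to 2.37 on 4 probes. CDH11 and CHAC1 also belonged here, and unlike RGS20 they stood in DKO+H2A.Z.1 at -6.51 and 2.03, below their WT levels of -6.28 and 2.34.

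LITAF, a lysosomal membrane protein linked to the response to lipopolysaccharide, was named after its values were seen, since it has 2 probes. It read 0.03 in WT, 5.60 in DKO and 4.59 in DKO+H2A.Z.1, and its probes differed by 5.57 and 5.74. Chosen in the same way, PRR5, SERPINE2, a secreted protease inhibitor, and KCNMB1, a subunit of a potassium channel, were higher by 3.07, 2.39 and 2.54, past 2-fold on both probes of each. NAV3 was higher by 4.12 on its brightest probe, but only 3 of its 6 probes were past 2-fold, the same number as were well above background.

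Bright genes were rarely apart: of the brightest 1104 genes, 29 (2.63%) differed at least 2-fold, 14 of them higher (1.27%) and 15 lower (1.36%). After H2AFZ the lowest was BRD7, a bromodomain subunit of a SWI/SNF remodelling complex, at 4.99 in WT and 3.16 in DKO. MRPL33, of the mitochondrial ribosome, read 4.40 and 2.61. INTS10, of the Integrator complex that processes small nuclear RNAs, read 3.85 and 2.25, and CLN6, a membrane protein needed for lysosome function, 4.41 and 2.82. CCDC167 and GATD3AL1 were lower by 1.81 and 1.66.

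Of the higher bright genes, PSPH, the last step of serine synthesis, read 2.10 in WT and 4.42 in DKO on its single probe. PYCR1, the last step of proline synthesis, read 2.32 and 3.92, past 2-fold on both probes. PARS2, the mitochondrial prolyl-tRNA synthetase, read 3.56 and 4.94, and MTHFD1, a folate enzyme, 2.87 and 4.19. In DKO+H2A.Z.1 PSPH and PYCR1 stood at 2.41 and 2.73, near WT, and PARS2 and MTHFD1 at 4.57 and 3.87, near DKO.

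IRF4, a transcription factor of B cells and plasma cells, read 3.49 in WT and 4.93 in DKO, with 1.44 on 1 probe and 0.99 on the other. RCSD1, which binds an actin capping protein, was higher by 1.31 and past 2-fold on all 4 probes. TPST2, a tyrosine sulfotransferase, and NFE2L1, a transcription factor for proteasome genes, were higher by 1.19 and 1.16, although 2 of the 4 probes for NFE2L1 were under 2-fold.

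For genes well above background in 1 culture alone the fold is a bound. CDH2, N-cadherin, was at least 16.1-fold lower and the elongation factor ELL2 at least 27.9-fold lower in DKO. AVD, avidin, was at least 9.25-fold lower on its brightest probe, though 1 of its 3 probes gave 0.28 and was not above background. CRADD, an adaptor of cell death signalling, and ST6GALNAC5, a sialyltransferase, were at least 8.94-fold and 8.85-fold lower. These bounds hold for the processing used here. At the weakest alternative ELL2, CDH2, AVD and ST6GALNAC5 gave -2.05, -1.57, -1.11 and -1.10. CRADD gave -0.94 there, under 2-fold. In DKO+H2A.Z.1 CRADD read -4.27, near the -3.77 of WT, whereas CDH2 read -8.54.

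Of genes not well above background in WT, MAL2, a protein of transport to the apical membrane, was at least 54.2-fold higher in DKO and MPST, a sulfurtransferase, at least 49.9-fold. THRB, a thyroid hormone receptor, was at least 8.94-fold higher on its brighter probe, with 0.27 on the other. HPGDS, which makes prostaglandin D, and the muscle myosin gene MYH1C were each at least 5.72-fold higher. At the weakest alternative HPGDS gave 0.89, under 2-fold, and MYH1C 1.00.

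Other B cell genes were mostly near their WT level. Of 22 measured genes of B cell identity and antigen receptor signalling, 21 were well above background in WT and 22 in DKO. Of the 22, 3 were at least 2-fold higher (13.6%, beside 4.28% of all genes) and none lower. Their median was 0.14 beside 0.15 for all genes. CD79B, a chain of the antigen receptor, read 6.53 and 6.86, and POU2AF1, a B cell coactivator, 5.17 and 5.50. PAX5 and EBF1, which set B cell identity, differed by -0.13 and 0.03. CD81, part of the B cell coreceptor, read 2.08 and 3.36. BCL10 and IRF8 were the lowest of the list, at -0.98 and -0.95.

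Markers of other blood cells were mostly dim. Of 11 myeloid markers 4 were at least 2-fold lower (36.4%, beside 11.2% of all genes) and none higher (median -0.81). Lower shares in the 3 dimmest bins of all genes ran from 17.7% to 29.2%. The summed signal of the 11 markers, in multiples of the 75th percentile, was 18.0 in WT and 11.6 in DKO. Most of both sums was CTSS, at 3.90 in WT and 3.09 in DKO, under 2-fold. Of the 11, 3 lay above 0: TLR2 (0.31), CSF3R (0.29) and CYBB (0.27). CD14, a receptor of monocytes, was at least 2.41-fold lower. TLR4 and IL18 were lower by 1.43 and 1.40, each on the 1 of 2 probes that was well above background. At the weakest alternative CD14, TLR4 and IL18 gave -0.17, -0.68 and -0.46, all under 2-fold. Of 8 T cell markers CD3E was higher (1.07 to 3.77 on 3 probes), and GATA3 and CD5 lower. GATA3 was not well above background in DKO and at least 1.52-fold lower. CD5 gave -1.68 on 1 probe and 0.36 on the other, both well above background on both arrays. The summed signals of the 8 markers were 84.6 and 77.6. CD3D, of the T cell receptor complex, was bright in both, at 6.38 and 6.24, and made up most of these sums. Of 6 erythroid markers LMO2 was lower (-1.86), with sums of 0.49 and 0.31, and of 4 fibroblast markers COL1A2 was higher (1.08 to 2.36 on the 4 probes well above background on either array) and FN1 lower on the 1 of 8 probes that was well above background, with sums of 0.33 and 1.17. None of the 3 thrombocyte markers was past 2-fold. Both samples are cultures of the B cell line DT40, so these markers are not read as counts of other cell types. Fewer cells with the RNA of a marker and less of it per cell cannot be told apart in RNA of a whole culture. The part of these markers in other results was not tested.

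Genes of cilia were low as a list. Of 14 measured genes of the transition zone, basal body and ciliary transport, 6 were at least 2-fold lower (where 11.2% of all genes were) and 1 higher, and the median was -0.70, between -1.20 and -0.52 over the alternatives. Besides IFT27, BBS4, a subunit of the BBSome that carries membrane proteins into cilia, read 0.60 in WT, -1.58 in DKO and 0.12 in DKO+H2A.Z.1, past 2-fold on all 3 probes. BBS5, of the same complex, was lower by 1.02 and NME5, a protein of motile cilia, by 3.56. The kinesin-2 motor genes KIF3A and KIF3B gave -0.67 and -0.68, under 2-fold.

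Of 14 measured genes of innate sensing, 5 were at least 2-fold lower (35.7%, beside 11.2% of all genes) and 2 higher (14.3%, beside 4.28%). Their median was -0.36, and -0.86 to -0.11 over the alternatives. The list was dim, with a median level of -3.01 in WT. Lower shares in the 3 dimmest bins of all genes ran from 17.7% to 29.2%. TLR3, the receptor for double-stranded RNA, read -3.18 in WT, -6.65 in DKO and -5.26 in DKO+H2A.Z.1. IFIH1, the cytosolic sensor MDA5, was at least 1.69-fold lower. TLR7, for single-stranded RNA, was lower on all 3 probes, by 1.67 to 1.87. The Toll-like receptor genes TLR1A and TLR1B, which in chicken read lipopeptides together with TLR2 forms, were instead at least 4.91-fold and 2.55-fold higher. The 19 interferon response genes had 1 gene past 2-fold in each direction (median 0.26).

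Cytokines, chemokines and their receptors included 11 lower and 3 higher of 44, where 11.2% and 4.28% of all genes were. This list was also dim, with a median level of -3.78 in WT. Its lower share lay within the range of the 3 dimmest bins of all genes, 17.7% to 29.2%. IL21R, the receptor for a helper cytokine of B cells, read -1.97 in WT, -3.95 in DKO and -3.85 in DKO+H2A.Z.1 on the 1 of 2 probes that was well above background, while its ligand IL21 was not well above background in WT and at least 1.99-fold higher. TNFSF13B, the survival factor BAFF, was lower by 1.43, past 2-fold on 4 of 5 probes, and the death receptor gene TNFRSF21 was higher on all 3 probes, by 1.12 to 1.71. BAFF stood at -1.50 in DKO+H2A.Z.1, near the -1.29 of WT.

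In the apoptosis list 4 of 20 genes were lower and 4 higher, where 11.2% and 4.28% of all genes were. BCL2, which blocks cell death, read -1.83 in WT and -3.59 in DKO, on 1 probe. The caspase gene CASP8 was lower by 1.73 on both probes. On the other side BIK and BAK1, which promote death, were higher by 2.12 and 1.12, and BCL2A1, which blocks it, was not well above background in WT and at least 1.94-fold higher.

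Enzymes that modify histones had 4 of 19 genes lower (21.1%, beside 11.2% of all genes) and none higher, with a median of 0.02. KDM5B, a demethylase of histone H3 lysine 4, read -1.09 in WT and -3.31 in DKO, on 1 probe. HDAC4, a class II deacetylase, read -0.33 and -2.45, lower on all 3 probes. HDAC11 and the mitochondrial desuccinylase SIRT5 were lower by 1.37 and 1.40, HDAC11 on 1 of 3 probes. PHC1, a Polycomb subunit, was lower by 1.15, past 2-fold on 4 of 5 probes. It was 1 of 2 lower genes among 13 of Polycomb and DNA methylation (15.4%, near the 11.2% of all genes). Among 16 genes of H2A.Z exchange and histone chaperones, ING3, a subunit of the complex that acetylates H2A.Z, was the only gene past 2-fold (-1.40, on 1 probe).

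DNA repair genes had 5 of 33 lower (15.2%, near the 11.2% of all genes) and none higher (median 0.03). RAD51D, of homologous recombination, read 2.99 in WT and 0.61 in DKO on its brighter probe and was past 2-fold on both. FANCA, of the crosslink repair pathway, was lower by 1.28 on 1 probe. DCLRE1C, the nuclease Artemis, read -4.58 in WT and -6.69 in DKO, where it was not well above background. Its fold of 4.31 is as read and not a minimum, and the difference was -0.39 at the weakest alternative. ORC3, of the origin recognition complex, was the 1 gene of 30 in the list of G1/S and DNA replication past 2-fold, at -1.27 to -1.41 on its 3 probes. None of 26 mitosis genes, 29 proteasome genes or 23 genes of oxidative phosphorylation was past 2-fold.

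Several lists, of metabolism, immediate early genes and stress responses, had medians above that of all genes. Of 17 genes of polyamine, sulfur and one-carbon metabolism 6 were at least 2-fold higher and none lower, where 4.28% of all genes were higher. Their median was 0.62 (0.12 after spike-in scaling, where that of all genes was -0.35). Besides MPST and TST, GLDC, which splits glycine, was at least 2.21-fold higher. MAT1A, which makes S-adenosylmethionine, was higher by 1.36 on the 1 of 3 probes that was well above background. At the weakest alternative GLDC and MAT1A gave 0.57 and 0.78, under 2-fold. The immediate early list had 2 of 6 genes at least 2-fold higher (33.3%, beside 4.28% of all genes), JUN and FOS. Its median was 0.92, and all 6 lay above the median of all genes. FOS was past 2-fold on 1 of its 2 probes. The other gave -0.02 and was well above background on both arrays. The amino acid stress and unfolded protein list had 2 of 19 at least 2-fold higher (10.5%, beside 4.28% of all genes). Its median was 0.53, and 0.03 after spike-in scaling. ERN1, the stress sensor of the endoplasmic reticulum, and ATF4, the regulator of amino acid stress genes, gave 0.99 and 0.69.

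Cholesterol synthesis genes had none of 13 past 2-fold, with a median of 0.47 that was -0.03 after spike-in scaling. The median of all genes was then -0.35. In the MAPK list SPRY2, an inhibitor of that cascade, was higher by 1.19 and 1.28 on its probes, and 14 of 16 genes lay above the median of all genes. Cytosolic ribosomal protein genes lay above it in 45 of 47 cases, with a median of 0.40 that was -0.10 after spike-in scaling, beside 0.33 for the brightest of the 10 bins of genes. RPL3L, the muscle form of a ribosomal protein, was the exception in size, at 0.63 in WT and -1.82 in DKO, with both probes past 2-fold.

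Genes of lysosomes and autophagy had 5 higher of 30 (16.7%, beside 4.28% of all genes) and 4 lower (13.3%, near the 11.2% of all genes). Among the higher genes were GUSB, PPT1 and CTSB, which are lysosomal hydrolases, by 1.19, 1.08 and 1.01, and ATP6V0D1, a subunit of the proton pump, by 1.07. Lower were HEXA, a lysosomal hydrolase, by 1.65, CLN6, the pump subunit ATP6V0A1 by 1.34, and CLN8 by 1.12. HEXA was past 2-fold on 2 of 3 probes.

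In fatty acid metabolism, CPT2, which works in the import of fatty acids into mitochondria, was 3.33-fold lower, and ACADL, which begins their breakdown, read 4.70 in WT and 3.34 in DKO. Both were lower on both probes, in a list with 3 lower (12.5%) and 2 higher (8.33%) of 24, beside 11.2% and 4.28% of all genes. Heat shock genes had 2 of 26 higher (7.69%, beside 4.28% of all genes), HSPA4L by 1.06 and HSPB2 by 1.31. Mitochondrial ribosomal protein genes had 3 of 36 lower (8.33%, near the 11.2% of all genes): MRPL33, MRPS35 (-1.31) and MRPL13 (-1.18), each past 2-fold on both probes. NF-kappaB and TNF family genes had 3 lower (15.8%) and 1 higher (5.26%) of 19, near the 11.2% and 4.28% of all genes. Glycolysis and hypoxia genes had 1 lower of 24 (4.17%), HIF1A, on all 7 of its probes.

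Of 36 cadherins, integrins, laminins and collagens 7 were lower (19.4%) and 2 higher, with CDH4, R-cadherin, at -3.78 in WT and -6.51 in DKO, lower on both probes. Of 53 homeobox, SOX, FOX, GATA and T-box factors 10 were lower (18.9%) and 2 higher. Both lists were dim, and their lower shares lay within the range of the 3 dimmest bins of all genes, 17.7% to 29.2%. LMX1B, a factor of limb and brain development, was past 2-fold lower on all 3 probes (-1.64 on the brightest), MEIS2, a HOX cofactor, on both (-1.34 on the brighter), and HOXA4 on both (-2.54 and -1.40). The higher members were HOXC9, at least 1.79-fold, and HOXA7, 2.15-fold, on 1 probe each.

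Of 40 genes of WNT, Notch, TGF-beta and Hedgehog signalling 4 were lower and 3 higher, near the 11.2% and 4.28% of all genes. TGFBR2, a receptor for TGF-beta, read -5.43 in WT, -3.42 in DKO and -3.57 in DKO+H2A.Z.1, and the WNT receptor gene FZD4 was higher by 1.24 and 1.27 on its probes. Of 65 solute carriers 6 were lower (9.23%, near the 11.2% of all genes) and none higher. SLC7A9, of a cystine transporter, was lower by 1.86 and SLC18B1 by 1.13 on the brighter probe, each past 2-fold on both. Of 21 Rab GTPases 4 were lower (19.0%, beside 11.2% of all genes) and none higher, though RAB40B, 1 of the 4, turned to 0.0868 with normexp. RAB24, a Rab of autophagy, read 3.79 in WT and 2.69 in DKO.

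**Figure D4:**
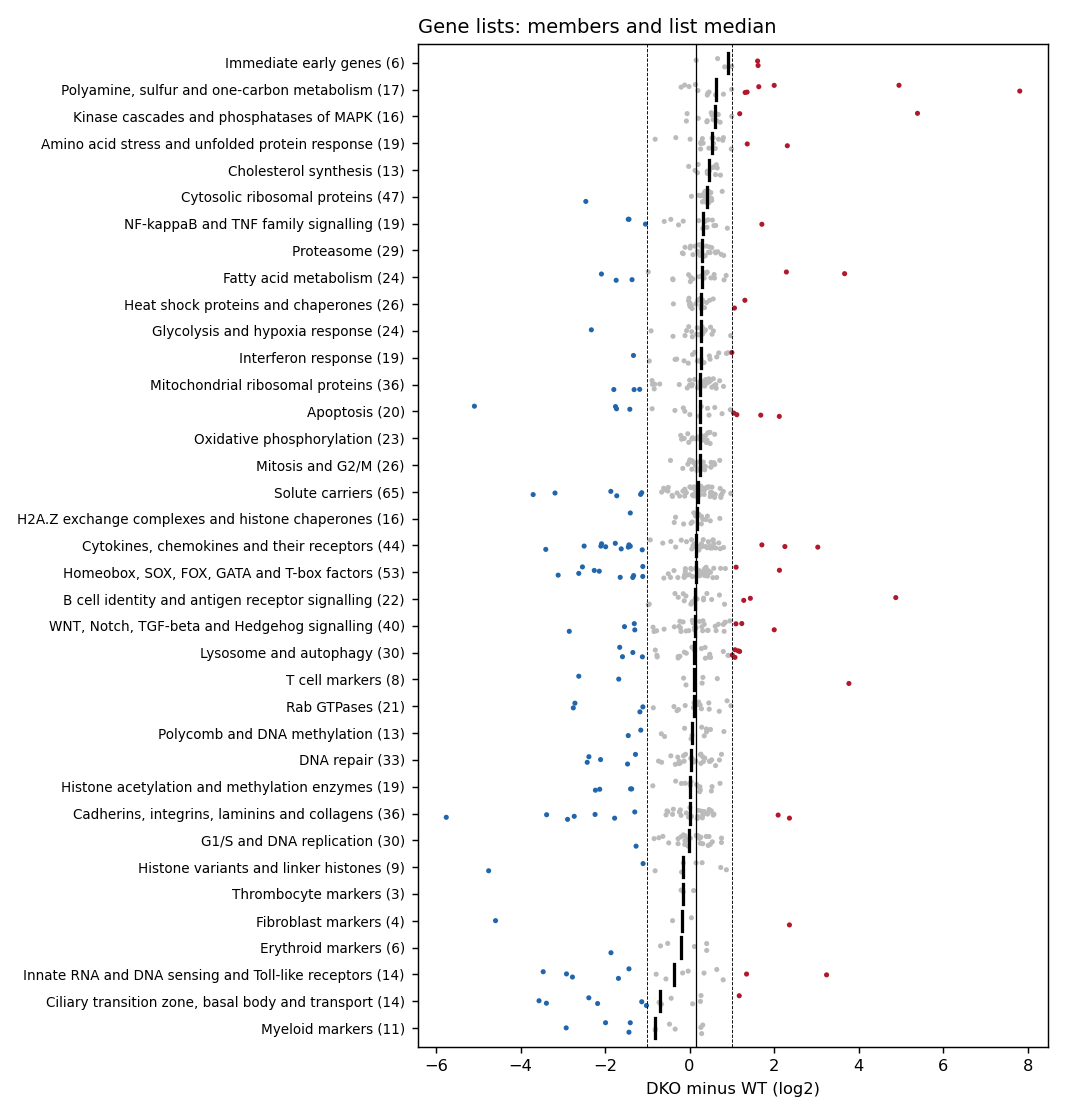
Differences DKO minus WT (log2) of the measured members of 37 gene lists, 1 point a gene, with the number measured in brackets and the list median as a bar. Blue and red points are at least 2-fold lower and higher, dashed lines mark 2-fold, and the thin line is the median of all genes (0.15). Myeloid, ciliary and innate sensing lists have the lowest medians (-0.81, -0.70 and -0.36) and immediate early genes the highest (0.92). After spike-in scaling the list medians of cholesterol synthesis and cytosolic ribosomal proteins turned from 0.47 and 0.40 to -0.03 and -0.10. That scaling lowers every difference by 0.50 alike, and the median of all genes went to -0.35, so lists keep their place relative to all genes.

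Some of these genes are neighbours in the genome. Named genes were placed by the order of genes in assembly GRCg7b, used for neighbours alone, since the array was annotated on galGal3. Genes of chromosome 11 were lower as a whole: their median was -0.25 over 138 genes, where the medians of the other 29 chromosomes with at least 20 genes ran from 0.04 to 0.28. Of the 138 genes 95 lay below the median of all genes, 26 were at least 2-fold lower (18.8%) and 5 higher. The gap between the chromosome 11 median and that of all genes was -0.40 here and -0.36 to -0.44 over the alternatives. In DKO+H2A.Z.1 minus WT, which shares the WT array, the chromosome 11 median was -0.38 beside -0.04 for all genes. In the lines with 5KR-H2A.Z and H2A-H2A.Z, on the other slide but set against the same WT array, it was -0.33 and -0.40 beside 0.06 and 0.01. All of these differences share the WT array, and the lines were made from the knockout, so they are not independent repeats.

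**Figure D5:**
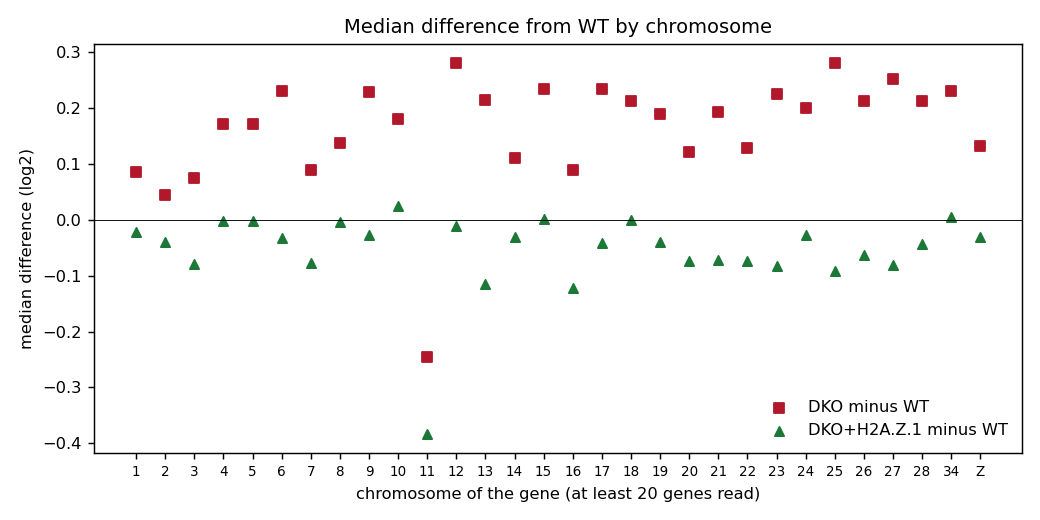
Median difference from WT (log2) of the genes of each chromosome with at least 20 genes read, for DKO (squares) and DKO+H2A.Z.1 (triangles), which share the WT array. Chromosome 11 stands at -0.25 and -0.38, below every other chromosome shown in both.

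There were 7 runs of at least 3 measured genes in a row that were past 2-fold in the same direction. Of all genes 11.2% were lower and 4.28% higher, and how many runs would arise without clustering was not tested. The longest runs held 4 genes. Of the 7 runs 3 lay on chromosome 11. One joined SNX20 and BRD7 with the dim genes TOX3 (0.18 with normexp) and SALL1, another joined POP4, of ribonuclease P, and C19orf12 (-1.67 and -1.88) with LOC100858381 and LOC415756, and the third joined the arylamine N-acetyltransferase genes PNAT3, NAT and PNAT10 (-1.68, -1.45 and -1.51) with MPHOSPH6 (-1.20). On chromosome 1, USP6NL, ECHDC3, NUDT5 and OPTN were lower together, 2.14-fold to 3.57-fold, and read -2.38, 2.40, 0.25 and -1.40 in DKO+H2A.Z.1, beside -2.41, 2.10, 0.33 and -1.89 in WT. USP6NL was past 2-fold on 1 of its 5 probes, and the others gave -0.49 to -0.92.

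Of the other runs, 1 held higher genes. Lower runs joined VPS41, INHBA and GLI3 on chromosome 2 and ADCK1, DIO2 and TSHR on chromosome 5, all lower. In the latter, DIO2, which activates thyroid hormone, and TSHR, the thyrotropin receptor, were not well above background in DKO and at least 1.39-fold and 3.38-fold lower. At the weakest alternative DIO2 and TSHR gave -0.16 and -0.50.

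The neighbours MPST and TST stood high, and CYTH4, NCF4 and IFT27 on the same stretch stood low. TST read -5.61 in WT and -0.65 in DKO, 31.0-fold higher, and MPST, beside it, is given above. On the same stretch NCF4, of the oxidase that makes superoxide in phagocytes, read -3.30 and -6.22, IFT27 was 5.22-fold lower, and CYTH4, an exchange factor for ARF GTPases, read -1.50 and -3.16. RAC2, the Rac GTPase of blood cells, SSTR3 and MYH9, nonmuscle myosin, gave -0.40, -0.36 and 0.49, under 2-fold. Many genes of the stretch had no named probe, among them TMPRSS6 and TEX33 directly beside the pair. In DKO+H2A.Z.1 TST and MPST stood at 0.85 and 0.64, above DKO, and NCF4 and IFT27 at -3.40 and -0.48, near WT. Measured genes of this stretch thus stood on opposite sides of their WT level in DKO.

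Of 21372 unnamed probes well above background on either array, 3943 were at least 2-fold apart, or 18.4%, near the 17.2% of all probes. Of the 3943, 1015 were higher and 2928 lower. By kind of identifier, 13.9% of probes with an Ensembl transcript ID, 14.5% of those with a nucleotide accession and 10.1% of those with a RefSeq transcript were lower, and 4.41%, 5.19% and 4.42% higher. The lowest unnamed probes were V00414, at 6.63 in WT and -1.91 in DKO, and CR523458, at -0.55 and -5.82. The highest were EF554781, at -6.12 and 2.14, and EF554767, higher by 8.10. In DKO+H2A.Z.1 these 4 stood at -2.28, -6.06, 1.31 and 0.98, each nearer to DKO than to WT.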

How the data were processed

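Per the labels' protocols, 100 ng of RNA from each of 5 DT40 cultures went onto a one-colour Agilent array after Cy3 labelling. The authors' deposited scanner files hold, for each spot, a processed signal, a background-subtracted fluorescence intensity on a linear scale. The file headers name Feature Extraction 11.5.1.1 as the software. The authors also deposited a table of intensity values on that scale. From these, processed signals of non-control spots were put on the log2 scale, each array's 75th percentile was taken off, 5 WT and 2 DKO spots that the scanner software marked were left out, and spots of a probe were averaged. The files carry no gene name or description, so probes were named through their RefSeq accession and a gene table of assembly GRCg7b (11935 of 43603), and the others stay as identifiers. Each gene took its value from its brightest probe (mean of WT and DKO) and entered when that probe was well above background on at least 1 array. A gene with no probe well above background on 1 array is given as a bound, against the higher of its own level and the lowest signal well above background there. The number of arrays limits the precision, and no test was made.

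Named genes followed a rule: with at least 3 agreeing probes, the 15 lower and 12 higher; of the brightest 1104 genes, up to 8 in each direction; 6 bounds in each direction; up to 6 of each list; histone genes; genes with opposite probes; and runs of neighbours. The text gives a part of them. Other list members it names, such as BBS5, IL21R, LMX1B, MEIS2 and CTSB, and genes near TST were chosen after their values were seen. The comparison, rule and 37 lists were chosen with earlier results of these data known, and list members were matched by exact symbol. The steps were tested on simulated data. Alternatives were normexp correction with an offset of 50 (on median signals, as the files used hold no mean), quantile normalization, median centring, cyclic loess, spike-in scaling, the value table, other filters on dim probes, marked spots kept, the median over probes, and thresholds of 1.5-fold and 3-fold. Calculations used Python 3.11.15, numpy 2.4.6, pandas 2.3.3, matplotlib 3.10.9, R 4.3.3 and limma 3.58.1. Some results are not reported here.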

Additional observations from a re-analysis of the deposited data

How the results depend on the processing

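No paired analysis was possible because each line has 1 array. Against 189 genes higher and 495 lower, normexp gave 115 and 264, median centring 294 higher, spike-in scaling 81 and 846, a threshold of 1.5-fold 628 and 766 and one of 3-fold 75 and 285. Against 1432 probes higher and 3896 lower, normexp gave 643 and 1455, median centring 2167 higher, spike-in scaling 631 and 6782, probes well above background on both arrays 2593 lower, no filter 2186 higher, 1.5-fold 4429 and 6168 and 3-fold 581 and 2126. Other counts stayed within 1.5 times. Of the 684 genes apart, 375 were also apart with normexp and 576 with spike-in scaling. Both H2AFZ probes stayed past 2-fold in the same direction in every setting run. Of 2006 values of the 187 genes named by the rule under alternatives, 118 kept their direction but fell below 2-fold and 11 turned sign. Those 11, all with normexp, were PCGF5 (0.0816), BF1 (0.0217), CASP18 (0.17), ELOVL7 (0.15), RAB40B (0.0868), COL9A1 (0.145), HOXD13 (0.038), MEIS1 (0.16), SPAG6 (0.0555), CXCR1 (0.16) and TOX3 (0.18). The value table as deposited, with no percentile subtracted, was added after the data were seen. Dim probes limit the folds: signals near background set 122 of the lower genes to bounds.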
